A study of Mus musculus with 16 samples.

Results

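Lysosome genes were examined in mouse blastocysts cultured with inhibitors of 3 MAP kinase pathways. The list named 38 genes, and a probe set was used where the platform annotation named a single gene of the list. In this way 37 genes were measured by 86 probe sets, of 18193 genes and 45037 probe sets measured in all samples, with the array's own control probe sets left out. Cd63 was listed and is named only. The measured members comprised 23 hydrolases, 3 activator or lipid-transfer proteins that serve hydrolases (Psap, Gm2a and Npc2), 9 membrane proteins and 2 transcription factors, Tfeb and Tfe3. Each gene is represented in counts and medians by its brightest probe set on the 430 2.0 arrays. All 37 of these passed the filter on dim signals, as did 75 of the 86 probe sets.

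Total RNA came from blastocysts, the embryo stage with an outer trophectoderm and an inner cell mass, treated with 20 µM SB203580 (an inhibitor of p38 MAP kinases), 25 µM SP600125 (of JNK) or 20 µM U0126 (of MEK, which acts just upstream of ERK), or from blastocysts with no treatment named, the controls. The labels name no strain, embryo age, length of treatment or solvent for the controls. Each of the 4 groups had 3 samples. Replicate 1 was prepared with the small sample assay and read on a 430A and a 430B array, and replicates 2 and 3 with the two-cycle assay on 430 2.0 arrays. Whether the replicates came from separate cultures is not stated, so the p-values measure only how these samples vary, which may be technical.

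Lysosomes degrade material delivered by endocytosis and autophagy. Soluble acid hydrolases cut proteins, glycans and lipids, and their membrane proteins protect the boundary, move products out and release calcium. In mammals the transcription factors TFEB and TFE3 bind a short palindromic sequence in the promoters of many lysosome genes, and phosphorylation by mTORC1 and, in cultured cells, by ERK can hold TFEB in the cytoplasm. In the mouse embryo, visceral endoderm, which derives from primitive endoderm, digests endocytosed protein in large lysosomes.

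The promoters of the members that carry the sequence bound by TFEB and TFE3 are shown so that these genes can be set beside the other members. The palindrome TCACGTGA, read on both strands at once, was searched in the window from 250 bases before to 50 bases after each annotated start, in RefSeq sequences of GRCm38.p6. Of the 38 members, 33 had such a window. The palindrome was found for 5 of these 33 genes (15.2 percent), against 1.12 percent of 27025 genes in the table. They were Cln3, Ctsa, Ctsd, Gla and Mcoln1. A longer form, with G before and C after it, was found for Cln3 alone (3.03 percent of members, against 0.370 percent of all genes). The core CACGTG, which lies within both forms, was found for 11 members (33.3 percent, against 8.09 percent of all genes). A match is a description of the letters and does not show that a factor binds. Capitals mark TCACGTGA, and each window is written 5' to 3' on the gene's strand.
The windows lie at chr7:126583187-126583486 on the minus strand (Cln3), chr2:164833523-164833822 on the plus strand (Ctsa), chr7:142387778-142388077 on the minus strand (Ctsd), chrX:134600956-134601255 on the minus strand (Gla) and chr8:3500269-3500568 on the plus strand (Mcoln1).
Cln3: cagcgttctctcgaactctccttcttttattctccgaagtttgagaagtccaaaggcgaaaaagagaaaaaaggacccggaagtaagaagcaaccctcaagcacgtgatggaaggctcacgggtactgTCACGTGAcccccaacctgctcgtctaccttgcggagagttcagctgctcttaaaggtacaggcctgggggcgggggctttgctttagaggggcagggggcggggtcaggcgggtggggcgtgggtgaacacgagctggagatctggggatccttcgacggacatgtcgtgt
Ctsa: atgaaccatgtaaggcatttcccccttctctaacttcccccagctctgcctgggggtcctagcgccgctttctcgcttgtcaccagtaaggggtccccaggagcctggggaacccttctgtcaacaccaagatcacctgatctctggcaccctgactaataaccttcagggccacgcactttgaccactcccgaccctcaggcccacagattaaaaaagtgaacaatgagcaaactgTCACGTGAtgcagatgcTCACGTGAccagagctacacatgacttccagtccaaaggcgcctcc
Ctsd: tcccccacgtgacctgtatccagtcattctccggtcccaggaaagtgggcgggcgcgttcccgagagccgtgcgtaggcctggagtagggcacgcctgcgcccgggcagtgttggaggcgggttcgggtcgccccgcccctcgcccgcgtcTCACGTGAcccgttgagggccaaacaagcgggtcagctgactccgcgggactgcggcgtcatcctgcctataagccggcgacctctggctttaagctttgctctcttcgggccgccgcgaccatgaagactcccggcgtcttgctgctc
Gla: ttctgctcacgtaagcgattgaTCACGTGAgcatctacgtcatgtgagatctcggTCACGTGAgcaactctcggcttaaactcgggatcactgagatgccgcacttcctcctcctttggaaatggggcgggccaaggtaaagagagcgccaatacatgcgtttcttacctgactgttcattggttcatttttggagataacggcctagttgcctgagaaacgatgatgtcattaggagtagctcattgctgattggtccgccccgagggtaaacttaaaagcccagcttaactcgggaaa
Mcoln1: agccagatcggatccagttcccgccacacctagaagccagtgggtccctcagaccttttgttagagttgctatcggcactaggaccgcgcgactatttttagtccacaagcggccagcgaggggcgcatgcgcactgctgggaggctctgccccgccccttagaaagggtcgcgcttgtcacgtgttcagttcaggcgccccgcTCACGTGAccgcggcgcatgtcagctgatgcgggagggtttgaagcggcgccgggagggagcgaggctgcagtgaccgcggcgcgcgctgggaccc
The first match began 122 bases before the start of Cln3, 13 before that of Ctsa, 99 before that of Ctsd, 228 before that of Gla and 46 before that of Mcoln1. Ctsa and Gla had 2 matches each.

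Signals are linear intensities that the authors scaled to the same trimmed mean on every array. A signal can be compared between groups for 1 probe set on 1 array type, and not between probe sets or array types. The median of all signals on the 430 2.0 arrays was 66.2 and 68.9 with SB203580, 61.5 and 66.5 with SP600125, 77.7 and 83.0 with U0126, and 61.1 and 65.7 in controls, so both U0126 arrays were highest. Actin signal at the 3' end over that at the 5' end, a ratio which rises with RNA breakdown, was 2.81 with SB203580, 3.66 with SP600125, 1.62 with U0126 and 2.47 in the control on the 430A arrays, and 1.58 to 1.75 on all 430 2.0 arrays. The same ratio for Gapdh ordered the 430A arrays differently, at 3.17 with SB203580, 3.46 with SP600125, 2.61 with U0126 and 4.03 in the control, and ran from 2.84 (SB203580 replicate 3) to 4.80 (control replicate 2) on the 430 2.0 arrays. U0126 was lowest in both ratios on the 430A arrays. None of 9 trophectoderm and 6 inner cell mass markers was below the filter. Of 7 macrophage and blood cell markers, 3 were below it and none of the 4 tested was called in any comparison. These 7 summed to 611.3 and 613.5 with SB203580, 507.2 and 667.5 with SP600125, 668.9 and 796.6 with U0126, and 467.6 and 487 in controls on the 430 2.0 arrays, highest with U0126, while in replicate 1 the sum was 662.6 with U0126 and 850.2 in the control. Their part in the results was not tested. Below the filter were also 5 of 6 cumulus and granulosa cell markers and 4 of 5 uterine and oviduct markers. No marker was at 0 on the 430 2.0 arrays. In whole embryos, fewer cells of a type and less RNA per cell cannot be told apart.

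The range of each lysosome gene over samples is given without a background, since it was not computed for all genes. Over the 8 arrays of the 430 2.0 type, treated and control together, 30 of 37 members varied less than 2-fold between their highest and lowest signal. The median range was 1.58-fold, from 1.27-fold for Npc1, which moves cholesterol out of lysosomes, to 5.46-fold for Lipa, the acid lipase, a dim probe set with signals of 26.0 to 142.0. The wider ranges were those of Lipa, Naglu, which acts on heparan sulfate (4.91-fold), Acp2 (3.16-fold), Ctsz (2.53-fold), Tfe3 (2.25-fold), Laptm4b (2.23-fold) and Sgsh, a sulfatase for the same glycan (2.11-fold).

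Differences between groups were tested on log2 signal with the array type as a block, and a gene was called at an adjusted p under 0.05 over all probe sets. With U0126, 1 of 37 members was called, the sialidase gene Neu1, which was higher (background 0.246 percent of 12614 genes called higher and 0.412 percent lower). With SP600125, 1 of 37 was called, the membrane protein gene Lamp2, which was higher (background 0.381 percent higher and 0.523 percent lower). With SB203580, 0 of 37 were called by limma (background 0.143 percent higher and 0.492 percent lower). At an unadjusted p under 0.05, 9 members were higher and 0 lower with U0126 (background 13.4 percent of genes in either direction), 6 higher and 2 lower with SP600125 (background 10.2 percent), and 6 higher and 4 lower with SB203580 (background 11.4 percent). After each array was centred on its median, the U0126 count was 4 higher and 0 lower, while over all genes it was 1819 of 12614, against 1689 at the authors' scaling. The 3 comparisons share the control samples, and a p that misses the threshold does not show that a gene did not differ.

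The median of the members lay slightly above that of all genes with each inhibitor. Their median log2 difference from control was 0.14 with SB203580, against 0.01 over all genes tested, with 24 of 37 members positive (51.0 percent of all genes). With SP600125 it was 0.03, against -0.00 over all genes, with 20 of 37 positive (49.7 percent of all genes). With U0126 it was 0.15, against 0.05 over all genes, with 25 of 37 positive (56.5 percent of all genes). The U0126 values moved with the scaling. Centring each array on its own median put the members at 0.05 and all genes at -0.05, and quantile normalization put them at 0.10 and 0.01. The members thus lay 0.11 above the genes at the authors' scaling, 0.11 after centring and 0.10 after quantile normalization. The higher median signal of the U0126 arrays of the 430 2.0 type moves with this shift, and its part in the result was not tested. On the 430A arrays the median signal was lower with U0126 (132.7) than in the control (147.4). On the 430B arrays it was 230.9 with U0126 and 223.8 in the control.

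By replicate, the U0126 median of the members was 0.13, 0.15 and 0.20 in replicates 1, 2 and 3, where all genes stood at -0.01, 0.06 and 0.09. With SB203580 the members were at 0.05, 0.10 and 0.10 and all genes at -0.01, -0.01 and 0.02. With SP600125 they were at 0.07, 0.05 and 0.04 and all genes at 0.00, -0.01 and 0.00. All 9 values are differences from the same 3 control samples, so the 3 inhibitors do not check each other here.

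**Figure D1:**
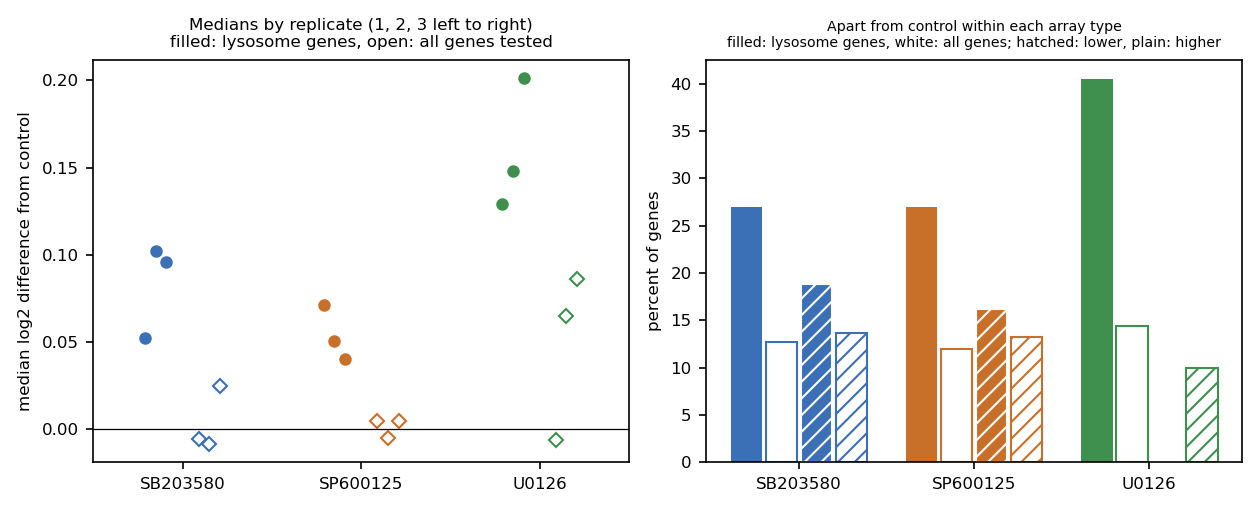
Left, median log2 difference from control on the same array type, for lysosome genes (filled circles) and all genes tested (open diamonds), with replicates 1, 2 and 3 of each inhibitor from left to right. Right, percent of lysosome genes (filled bars) and of all genes (white bars) that were higher (plain) or lower (hatched) than control in all samples within each array type. U0126 has no lower member, so its hatched filled bar is absent.

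A count that needs no model gives the samples themselves. A gene was taken as apart from control if its replicate 1 signal was above (or below) the control on that array type and both replicates 2 and 3 were above (or below) both controls. With U0126, 15 of 37 members were higher in this sense and 0 lower, where the background was 14.4 percent of genes higher and 9.99 percent lower. With SB203580, 10 were higher and 7 lower (background 12.7 and 13.7 percent), and with SP600125, 16 were apart, 10 higher and 6 lower (background 25.2 percent in either direction). After each array was centred on its median, the U0126 counts were 6 higher and 0 lower, against 8.74 and 16.1 percent of genes. After quantile normalization they were 14 and 0, against 12.2 and 11.6 percent. The 15 members were 8 hydrolases (Neu1, Ctsa, Man2b1, Gla, Hexa, Gaa, Smpd1 and Ctsl), the sphingolipid activator precursor gene Psap, 5 membrane protein genes (Laptm4b, Mcoln1, Scarb2, Lamp1 and Cln3) and Tfeb.

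**Figure D2:**
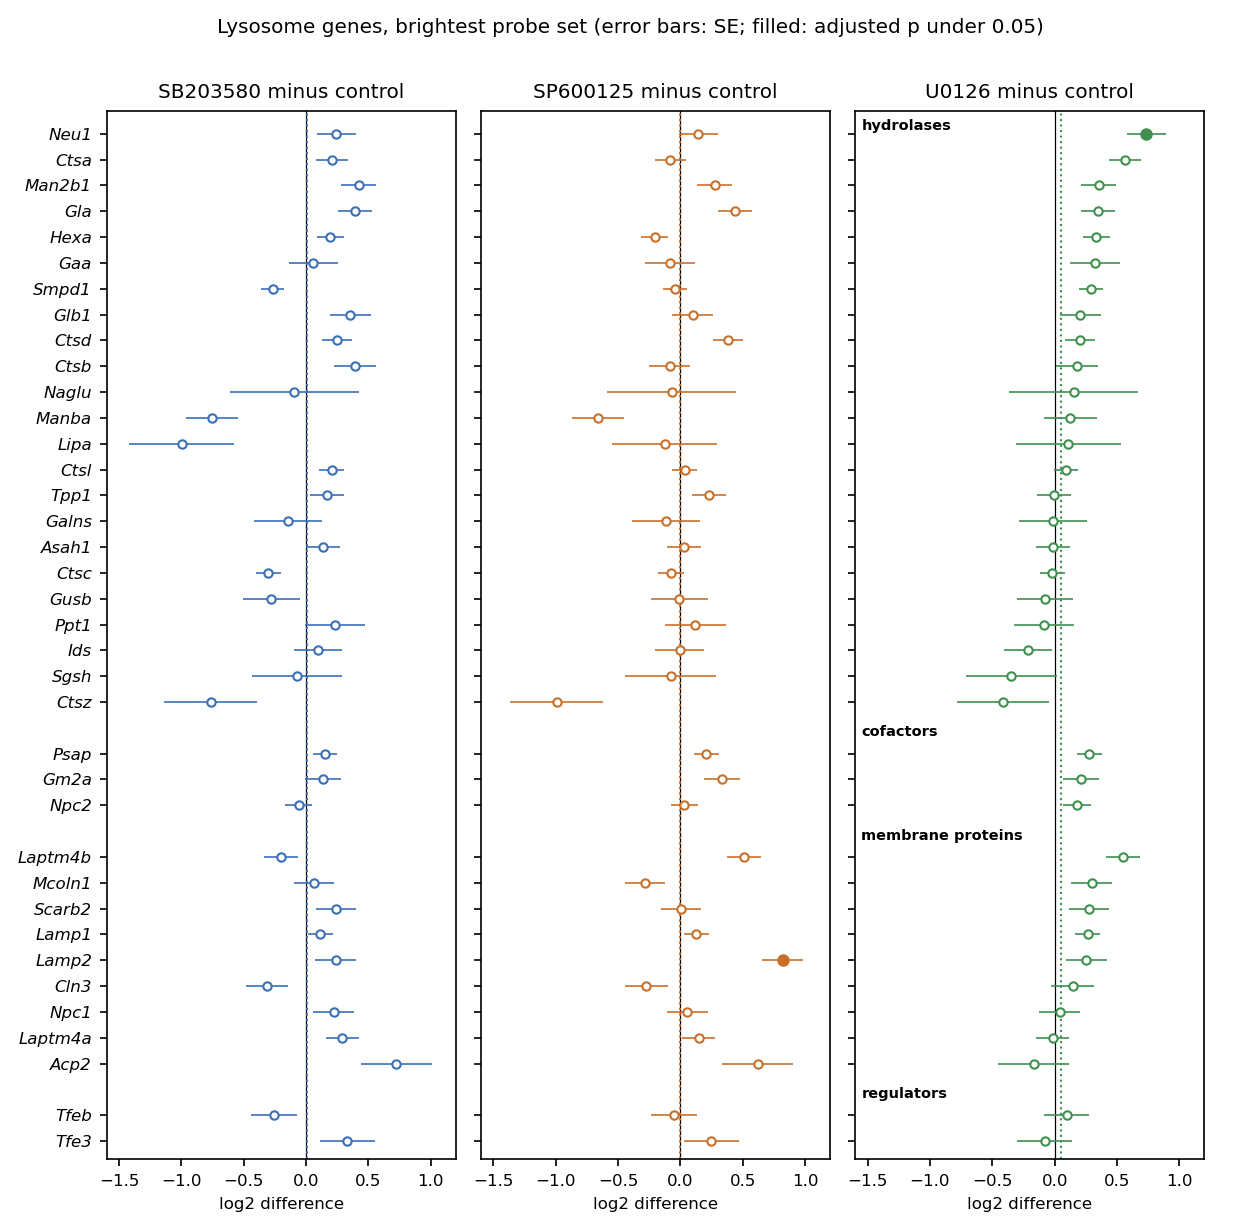
Log2 difference of each inhibitor from control for the 37 measured lysosome genes at their brightest probe set, grouped by role and sorted by the U0126 value. Points are the fitted differences with their SE (n = 3 samples a group), filled points were called at an adjusted p under 0.05, and dotted lines mark the median of all genes tested. Neu1 with U0126 (0.74) and Lamp2 with SP600125 (0.82) are the filled points.

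Among the 23 hydrolases, the median difference from control was 0.14 with SB203580, -0.04 with SP600125 and 0.13 with U0126. Neu1 removes terminal sialic acids from glycans and is active in a complex with the product of Ctsa. Its signal in replicates 1, 2 and 3 was 599, 882 and 867 with SB203580, 548, 810 and 839 with SP600125, 815, 1248 and 1276 with U0126, and 441, 710 and 875 in controls. The U0126 samples were the highest on each array type and did not overlap with any other group there, while controls 2 and 3 lay on both sides of the SP600125 samples. Neu1 rose by 0.74 ± 0.16 on the log2 scale with U0126 (SE, n = 3 a group, adjusted p = 0.0486), which is 1.67-fold. The differences by replicate were 0.87, 0.65 and 0.69. On the 430 2.0 arrays alone the value was 0.67 (adjusted p = 0.218). The call was lost in each of the 12 fits that left out 1 sample, with values of 0.66 to 0.85 and an adjusted p of up to 0.199. It was also lost in 6 of 10 other settings, among them centring (0.63, adjusted p = 0.0803) and quantile normalization (0.71, adjusted p = 0.0575). A further tested Neu1 probe set stood at 0.79 ± 0.36 (adjusted p = 0.402).

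Ctsa encodes cathepsin A, the carboxypeptidase that stabilises the sialidase. Its signal was 2508, 5446 and 5412 with SB203580, 1909, 4399 and 4824 with SP600125, 3570, 6168 and 7030 with U0126, and 1927, 4434 and 5603 in controls. At this probe set, the brightest, the U0126 samples were again the highest on each array type. The difference of U0126 from control was 0.56 ± 0.13 (SE, n = 3 a group) and missed the threshold (adjusted p = 0.068). It passed in 3 of 10 other settings, quantile normalization (adjusted p = 0.0370), the stricter filter on dim signals (0.0472) and the replicate number as a block (0.0466), and in 1 of 12 omissions, without control replicate 3 (0.69, adjusted p = 0.0392). A dim further Ctsa probe set, 1458466_at, disagreed. It read 682, 103 and 119 with U0126 and 757, 121 and 121 in controls, so the U0126 samples were below control there. Glb1, the beta-galactosidase of the same complex, was at 0.36 with SB203580, 0.10 with SP600125 and 0.21 with U0126, none of them called. The SB203580 value was 0.89 in replicate 1 and 0.10 and 0.08 in replicates 2 and 3, and on the 430 2.0 arrays alone the values were 0.09 with SB203580 and 0.01 with U0126.

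Hexa encodes the alpha subunit of beta-hexosaminidase, which degrades gangliosides. Its signal was 4967, 10344 and 10772 with SB203580, 3588, 8073 and 8307 with SP600125, 6225, 10073 and 11863 with U0126, and 4826, 8993 and 8525 in controls. The SP600125 samples were below the controls and the other 2 inhibitors above them on both array types, by -0.21 ± 0.11 with SP600125, 0.19 ± 0.11 with SB203580 and 0.34 ± 0.11 with U0126 (SE, n = 3 a group). None of these 3 differences passed, at adjusted p-values of 0.646, 0.621 and 0.198. Smpd1, the acid sphingomyelinase, had 4070, 7018 and 6802 with SB203580, 4857, 8172 and 7819 with SP600125, 6517, 9301 and 10257 with U0126, and 4872, 8220 and 8471 in controls. The SB203580 samples were the lowest and the U0126 samples the highest on each array type. Against control, Smpd1 stood at -0.27 ± 0.09 with SB203580 and 0.29 ± 0.09 with U0126, with adjusted p-values of 0.322 and 0.206.

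Manba encodes beta-mannosidase. It had 261, 456 and 421 with SB203580, 260, 531 and 442 with SP600125, 663, 785 and 633 with U0126, and 536, 744 and 630 in controls. The SB203580 and SP600125 samples lay below the U0126 and control samples on both array types. The differences from control were -0.75 ± 0.21 with SB203580 (adjusted p = 0.170), -0.66 ± 0.21 with SP600125 (adjusted p = 0.273) and 0.13 ± 0.21 with U0126. The alpha-mannosidase gene Man2b1 ran the other way, with 1384, 2434 and 2217 with SB203580, 1412, 1976 and 1970 with SP600125, 1130, 2232 and 2562 with U0126, and 1115, 1628 and 1695 in controls. At this probe set, the brightest, all 9 treated samples were above the controls of their array type. The differences were 0.42 ± 0.14 with SB203580, 0.28 ± 0.14 with SP600125 and 0.35 ± 0.14 with U0126, and none of these passed (adjusted p = 0.291, 0.639 and 0.323). A dim further Man2b1 probe set, 1436781_at, disagreed in part. It read 27.2, 112.3 and 95.8 (SB203580), 25.0, 92.2 and 69.3 (SP600125), 15.9, 102.3 and 25.2 (U0126), and 29.1, 40.1 and 41.3 (control). There replicate 1 of every inhibitor and replicate 3 of U0126 lay below control. Gla, the alpha-galactosidase, had 1566, 4187 and 3204 with SB203580, 1668, 3538 and 3920 with SP600125, 1507, 3877 and 3254 with U0126, and 1019, 3115 and 2910 in controls. It too was above control in all 9 treated samples, by 0.39 ± 0.14, 0.44 ± 0.14 and 0.34 ± 0.14 for SB203580, SP600125 and U0126 in that order, with adjusted p-values of 0.313, 0.255 and 0.314. A dim further Gla probe set, 1449006_at, disagreed. It read 3.3, 8.9 and 46.2 (SB203580), 6.9, 57.0 and 207.5 (SP600125), 4.4, 192.7 and 283.2 (U0126), and 20.3, 114.2 and 91.2 (control), so the SB203580 samples were below control, at -1.48 ± 0.63 (adjusted p = 0.447), with SP600125 at -0.18 ± 0.63 and U0126 at 0.42 ± 0.63.

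The cathepsins, which are lysosomal proteases, did not move together. Ctsd, the main aspartic protease, had 4920, 6311 and 6514 with SB203580, 6154, 6563 and 6590 with SP600125, 6076, 5732 and 5294 with U0126, and 4331, 4729 and 5854 in controls. Both SB203580 and SP600125 were above control on each array type, at 0.25 ± 0.12 (adjusted p = 0.547) and 0.38 ± 0.12 (adjusted p = 0.270), while U0126 overlapped with control. Ctsc, a dipeptidyl peptidase that activates serine proteases, had 4368, 11904 and 11420 (SB203580), 4678, 14266 and 14338 (SP600125), 5373, 13103 and 15320 (U0126), and 5831, 13289 and 14446 (control). The SB203580 samples were the lowest, at -0.30 ± 0.10 from control (adjusted p = 0.282). Ctsz, a carboxypeptidase, had 203, 1287 and 1388 with SB203580, 211, 892 and 1199 with SP600125, 790, 1480 and 672 with U0126, and 729, 1512 and 1699 in controls. It was below control in every SB203580 and SP600125 sample, at -0.77 ± 0.37 (adjusted p = 0.552) and -0.99 ± 0.37 (adjusted p = 0.410), and replicate 1 gave the largest differences, at -1.78 and -1.73. On the 430 2.0 arrays alone the values were -0.26 and -0.63, and over omissions of 1 sample they ran from -0.98 to -0.29 and from -1.22 to -0.71.

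**Figure D3:**
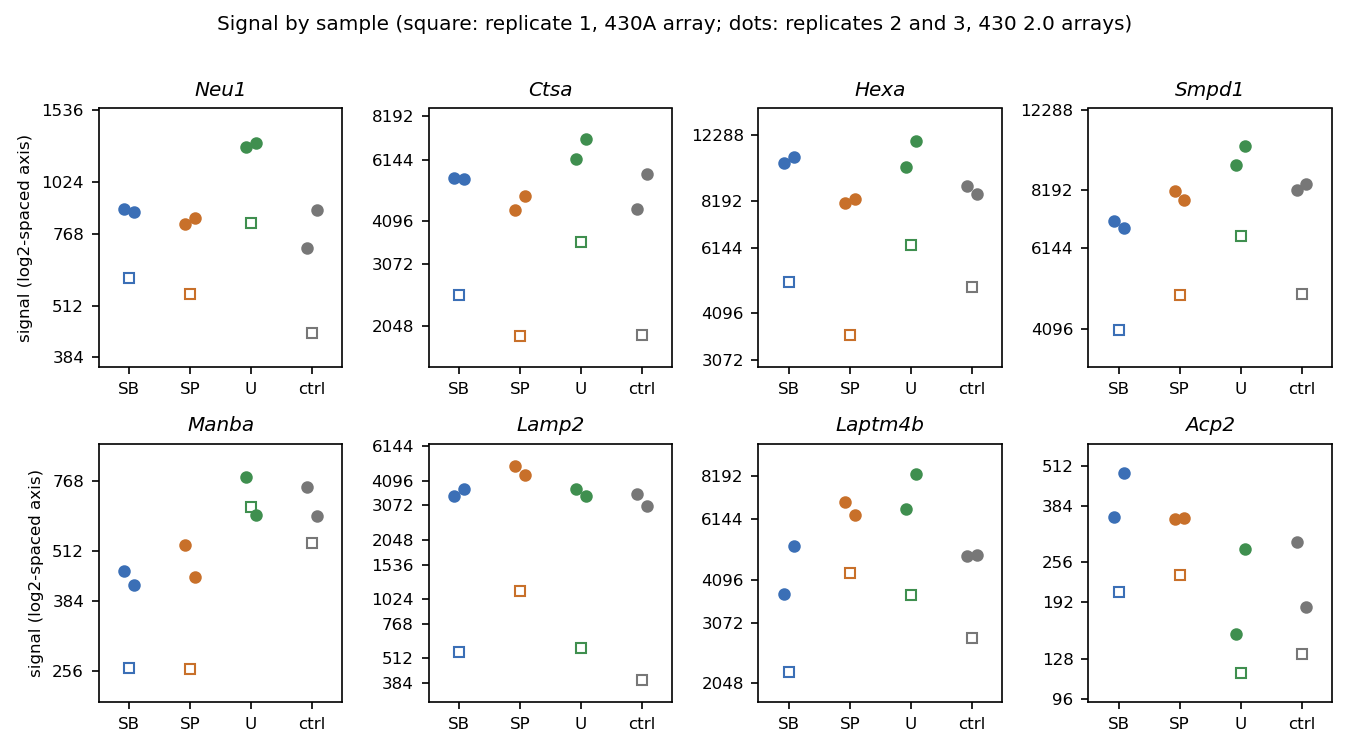
Deposited signal of 8 lysosome genes in each sample at the brightest probe set, on log2-spaced axes, for SB203580 (SB), SP600125 (SP), U0126 (U) and control (ctrl). Open squares are replicate 1 on the 430A array and dots are replicates 2 and 3 on 430 2.0 arrays, so squares are to be compared with squares and dots with dots. Neu1 is highest with U0126 (815, 1248 and 1276), and Lamp2 is highest with SP600125 (1129, 4849 and 4392).

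Ctsb, the cysteine protease cathepsin B, was read by 5 probe sets, all of which passed the filter, and they did not give 1 answer. The brightest, 1417490_at, had 2375, 3730 and 2909 with SB203580, 1747, 2870 and 1896 with SP600125, 2284, 3175 and 2289 with U0126, and 2087, 2495 and 2189 in controls. Only the SB203580 samples stood apart from control on both array types, at 0.39 ± 0.17 (SE, n = 3 a group, adjusted p = 0.453), and the next brightest, 1448732_at, gave 0.57 ± 0.21 (adjusted p = 0.363). With U0126 these 2 probe sets stood at 0.18 ± 0.17 and 0.64 ± 0.21, and with SP600125 at -0.09 ± 0.17 and -0.02 ± 0.21, none of them called. The third, 1444987_at, was dim, with 118, 161 and 55.9 (SB203580), 57.5, 49.6 and 21.8 (SP600125), 634, 113 and 120 (U0126), and 473, 117 and 203 (control). The SP600125 samples were the lowest on each array type, and against control this probe set fell by 2.17 ± 0.47 in log2 units (SE, n = 3 a group, adjusted p = 0.0492). The call was kept in 3 of 12 fits that left out 1 sample and in 4 of 9 other settings, and on the 430 2.0 arrays alone the value was -1.85 (adjusted p = 0.313). With an added constant of 50 it was -1.61 (adjusted p = 0.0507). The 2 brighter probe sets gave values near 0 for SP600125, so the fall was seen on 1 probe set of 5. The remaining probe sets, 1417492_at and 1417491_at, had means of 62.7 and 47.5 and differences from control between -0.15 and 0.17.

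**Figure D4:**
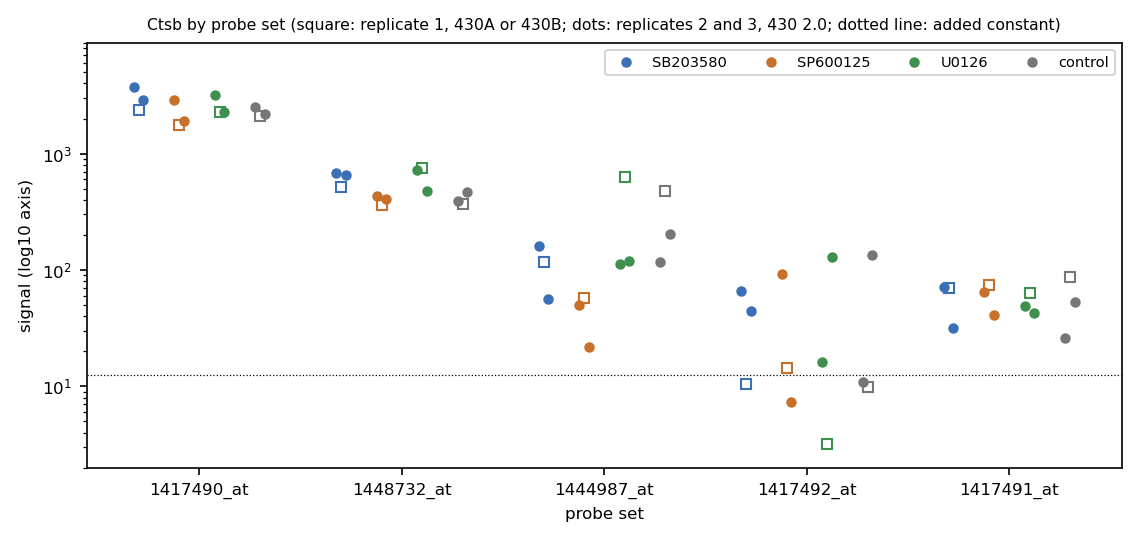
Deposited signal of the 5 Ctsb probe sets in each sample, on a log10 axis, with SB203580, SP600125, U0126 and control from left to right within each probe set. Open squares are replicate 1 (430A or 430B array), dots are replicates 2 and 3 (430 2.0 arrays), and the dotted line is the added constant of 12.6. At 1444987_at the SP600125 samples (57.5, 49.6 and 21.8) are the lowest of their array type.

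Over all members, 38 further probe sets of 23 genes were tested beside the brightest ones. The sign matched that of the gene's brightest probe set for 28 of 38 with SB203580, for 25 of 38 with SP600125 and for 25 of 38 with U0126. The brightest probe set was on the 430A array for 35 genes and on the 430B array for Ids and Tfe3.

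The 3 cofactors present lipids to hydrolases or carry cholesterol. Psap, the precursor of the saposins, had 12108, 31863 and 32907 with SB203580, 13832, 32917 and 31234 with SP600125, 12424, 32702 and 40741 with U0126, and 10631, 28139 and 30941 in controls. At this probe set all 9 treated samples were above the controls of their array type, at 0.15 ± 0.10, 0.21 ± 0.10 and 0.28 ± 0.10 for SB203580, SP600125 and U0126 in that order, and none passed (adjusted p = 0.704, 0.603 and 0.264). A further Psap probe set, 1421813_a_at, read 2384, 2727 and 2050 (SB203580), 2838, 3442 and 2698 (SP600125), 2299, 3177 and 1898 (U0126), and 1722, 2358 and 2567 (control). There replicate 3 of SB203580 and of U0126 lay below both controls of its array type. Gm2a, which lifts gangliosides towards beta-hexosaminidase, stood at 0.13, 0.34 and 0.21, and Npc2, which hands cholesterol to Npc1, at -0.06, 0.03 and 0.18, in the same order.

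Each inhibitor gave a positive difference for 7 of the 9 membrane proteins, but not for the same 7. The negative ones were Cln3 and Laptm4b under SB203580, Cln3 and Mcoln1 under SP600125, and Acp2 and Laptm4a under U0126. Over all genes, 51.0, 49.7 and 56.5 percent were positive in that order of inhibitors. The membrane protein medians were 0.22 with SB203580, 0.13 with SP600125 and 0.25 with U0126. Lamp2, a heavily glycosylated protein of the lysosomal membrane with a role in chaperone-mediated autophagy, had 554, 3410 and 3734 with SB203580, 1129, 4849 and 4392 with SP600125, 577, 3708 and 3414 with U0126, and 398, 3527 and 3032 in controls. The SP600125 samples were the highest on each array type. Lamp2 rose by 0.82 ± 0.17 with SP600125 (SE, n = 3 a group, adjusted p = 0.0295), which is 1.77-fold. Replicate 1 gave 1.47, and replicates 2 and 3 gave 0.57 and 0.42. On the 430 2.0 arrays alone the difference was 0.50 (adjusted p = 0.319), and the call was lost without SP600125 replicate 1 or 2 or control replicate 1 or 3, with values of 0.58 to 0.96 over all 12 omissions. The 3 further Lamp2 probe sets stood at 0.67 ± 0.19, 0.66 ± 0.23 and 0.44 ± 0.15 with SP600125, with adjusted p-values of 0.177, 0.352 and 0.300. The SP600125 430A array also had the highest actin ratio, 3.66, while its Gapdh ratio, 3.46, was below the control's 4.03. The part of these ratios in the replicate 1 value was not tested. Lamp1, the paralogue of Lamp2, had 8948, 19390 and 20290 with SB203580, 9940, 17828 and 20360 with SP600125, 10592, 20266 and 22504 with U0126, and 9460, 15789 and 18563 in controls. Only the U0126 samples were apart from control, at 0.27 ± 0.10 (adjusted p = 0.287).

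Laptm4b, a transmembrane protein of late endosomes and lysosomes, had 2210, 3718 and 5146 with SB203580, 4289, 6902 and 6315 with SP600125, 3702, 6590 and 8300 with U0126, and 2772, 4807 and 4823 in controls. All SP600125 and U0126 samples were above the controls of their array type, and the SB203580 samples overlapped with them. The differences from control at this probe set were -0.20 ± 0.13, 0.51 ± 0.13 and 0.55 ± 0.13 for SB203580, SP600125 and U0126 in that order, with adjusted p-values of 0.713, 0.134 and 0.090. A further probe set, 1416148_at, read 487, 1165 and 1418 (SB203580), 891, 1884 and 2186 (SP600125), 844, 2169 and 2213 (U0126), and 560, 1257 and 1388 (control). There Laptm4b rose by 0.68 ± 0.14 with U0126 (adjusted p = 0.0444), which was lost in each of the 12 omissions. Its relative Laptm4a had 2402, 4361 and 4524 with SB203580, 2724, 3767 and 3426 with SP600125, 1945, 4031 and 3180 with U0126, and 2223, 3269 and 3545 in controls, and stood at 0.29 ± 0.13 (adjusted p = 0.500), 0.15 ± 0.13 (adjusted p = 0.861) and -0.02 ± 0.13 (adjusted p = 0.981).

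Acp2, the lysosomal acid phosphatase made as a membrane-bound precursor, had 208, 354 and 485 with SB203580, 233, 349 and 352 with SP600125, 116, 153 and 282 with U0126, and 133, 295 and 186 in controls. SB203580 and SP600125 were above control on each array type, at 0.72 ± 0.29 (adjusted p = 0.394) and 0.62 ± 0.29 (adjusted p = 0.567), and U0126 overlapped with control at -0.17 ± 0.29. A nearly as bright Acp2 probe set, 1424655_at, gave 0.07 ± 0.27 and 0.08 ± 0.27 for SB203580 and SP600125, so the 2 probe sets disagree. Cln3, a membrane protein mutated in a juvenile storage disease, had 512, 504 and 543 with SB203580, 580, 546 and 482 with SP600125, 710, 697 and 744 with U0126, and 673, 587 and 688 in controls. It was below control with SB203580 (-0.31 ± 0.17) and SP600125 (-0.27 ± 0.17) and above with U0126 (0.14 ± 0.17) on each array type, with adjusted p-values of 0.613, 0.742 and 0.789. Mcoln1, the calcium channel of the lysosomal membrane, had 480, 984 and 936 with SB203580, 374, 667 and 853 with SP600125, 636, 1086 and 1055 with U0126, and 463, 897 and 936 in controls. At this probe set its differences were 0.06 ± 0.16, -0.28 ± 0.16 and 0.30 ± 0.16 for SB203580, SP600125 and U0126 in that order, with adjusted p-values of 0.950, 0.699 and 0.489. A further Mcoln1 probe set, 1416671_a_at, read 527.2, 526.5 and 666.2 (SB203580), 534.2, 501.4 and 581.7 (SP600125), 605.8, 622.6 and 700.3 (U0126), and 448.1, 469.3 and 701.3 (control). There SP600125 replicate 1 was above control, and the U0126 samples overlapped with the controls on the 430 2.0 arrays.

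Neither regulator was called in any of the 6 comparisons with limma, and neither reached an unadjusted p under 0.05. Tfeb had 454, 376 and 516 with SB203580, 512, 511 and 523 with SP600125, 622, 550 and 550 with U0126, and 557, 522 and 528 in controls. The SB203580 samples were below control and the U0126 samples above it on each array type, by -0.26 ± 0.18 (adjusted p = 0.734) and 0.10 ± 0.18 (adjusted p = 0.884). Tfe3 had 3968, 599 and 677 with SB203580, 3399, 670 and 593 with SP600125, 4146, 534 and 301 with U0126, and 2760, 541 and 537 in controls, where replicate 1 was read on the 430B array. The differences were 0.33 ± 0.22 (adjusted p = 0.708), 0.25 ± 0.22 (adjusted p = 0.861) and -0.08 ± 0.22 (adjusted p = 0.927), and the 3 U0126 replicates gave 0.59, -0.01 and -0.81. Arrays measure the RNA of these factors and not where the proteins are.

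The 5 members whose promoters carry TCACGTGA can be set beside the others. With U0126 all 5 had a positive difference from control, from 0.14 (Cln3) to 0.56 (Ctsa) with a median of 0.30, while 17 of the 27 measured members whose windows lack it were positive, with a median of 0.13. With SB203580, 4 of 5 were positive with a median of 0.21, against 17 of 27 and 0.13. With SP600125, 2 of 5 were positive with a median of -0.08, against 15 of 27 and 0.03. For the core CACGTG the U0126 counts were 10 of 11 positive with a median of 0.21, against 12 of 21 and 0.11. None of these 5 genes was called against control, and the values describe the groups with no test.

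The inhibitors were also compared with each other. For SB203580 against SP600125, 1 of 37 members was called, Laptm4b, which was lower with SB203580 (-0.71 ± 0.13, SE, n = 3 a group, adjusted p = 0.0159), where the background was 0.309 percent of genes higher and 0.753 percent lower. The probe set 1416148_at gave -0.72 ± 0.14 (adjusted p = 0.0197), and 1436915_x_at was not called (-0.59 ± 0.18, adjusted p = 0.181). The first call was kept in 8 of 12 omissions, and on the 430 2.0 arrays alone the value was -0.59 (adjusted p = 0.176).

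For SB203580 against U0126, 3 of 37 members were called and all were lower with SB203580, where the background was 0.721 percent higher and 1.24 percent lower. Smpd1 stood at -0.56 ± 0.09 (adjusted p = 0.00606), with -0.68, -0.48 and -0.52 in replicates 1, 2 and 3, and kept its call in each of the 12 omissions and in 8 of 10 other settings. On the 430 2.0 arrays alone it was not called (-0.50, adjusted p = 0.0736), nor without the intensity trend (adjusted p = 0.151). Its further probe set 1447874_x_at was not called (-0.52 ± 0.15, adjusted p = 0.122). Laptm4b stood at -0.75 ± 0.13 (adjusted p = 0.00913), kept its call in 9 of 12 omissions and was also called on the 430 2.0 arrays alone (-0.76, adjusted p = 0.0473). Its further probe sets 1416148_at (-0.77 ± 0.14, adjusted p = 0.0109) and 1436915_x_at (-0.86 ± 0.18, adjusted p = 0.0231) were called too. Manba stood at -0.88 ± 0.21 (adjusted p = 0.0481) and kept its call in 1 of 12 omissions, which gave -1.04 to -0.70, and in 5 of 10 other settings. After centring and after quantile normalization Laptm4b and Smpd1 were called and Manba was not (adjusted p = 0.0758 and 0.0721).

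For SP600125 against U0126, 2 of 37 members were called and both were lower with SP600125, where the background was 1.92 percent higher and 2.08 percent lower. Ctsa stood at -0.64 ± 0.13 (adjusted p = 0.0103), with -0.90, -0.58 and -0.45 in replicates 1, 2 and 3, and kept its call in 10 of 12 omissions. Hexa stood at -0.54 ± 0.11 (adjusted p = 0.0103), with -0.79, -0.44 and -0.40, and kept its call in 11 of 12. The Ctsb probe set 1444987_at was also lower with SP600125, at -2.05 ± 0.47 (adjusted p = 0.0264). On the 430 2.0 arrays alone Ctsa was at -0.51 (adjusted p = 0.105) and Hexa at -0.42 (adjusted p = 0.112). In replicate 1, where both differences were largest, the actin ratio was 3.66 with SP600125 and 1.62 with U0126 and the Gapdh ratio 3.46 and 2.61, and their part was not tested. After centring, Ctsa and Hexa were called lower and Lamp2 was called higher with SP600125, and after quantile normalization Ctsa, Hexa and Smpd1 were called lower.

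The list median was -0.13 for SB203580 against U0126 (all genes -0.05) and -0.08 for SP600125 against U0126 (all genes -0.06). After centring these were -0.03 (all genes 0.05) and 0.01 (all genes 0.02). The sign of the second turned, as did that of both medians of all genes. Members minus all genes was -0.079 at the authors' scaling and -0.078 after centring for SB203580 against U0126. For SP600125 against U0126 it was -0.016 and -0.015. Without a model, 2 members were higher and 11 lower with SB203580 than with U0126 in all samples within each array type (background 11.2 and 16.4 percent), and 3 were higher and 11 lower with SP600125 than with U0126 (background 13.2 and 18.2 percent). After centring these were 6 higher and 9 lower (background 17.8 and 11.1 percent) and 3 higher and 9 lower (background 18.4 and 13.0 percent). Between SB203580 and SP600125, 6 were higher and 7 lower (background 15.1 and 14.3 percent), with a list median of 0.01 (all genes 0.01).

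Other genes of the lysosomal system gave few calls at an adjusted p under 0.05. Of 17 other lysosomal enzymes and membrane proteins tested, 1 rose with U0126 (background 0.246 percent of genes), Ostm1, which forms a complex with the chloride transporter of lysosomes. It had 9188, 2346 and 2524 with SB203580, 7195, 2650 and 3413 with U0126, and 4992, 1343 and 1242 in controls, at 0.98 ± 0.19 with U0126 (adjusted p = 0.0320, called in 5 of 12 omissions). The SB203580 samples were also above control, at 0.90 ± 0.19, and missed the threshold (adjusted p = 0.0581). After centring, Ostm1 was called higher and Ctsh lower with SB203580. Of 15 proton pump genes, which acidify the lysosome, 1 rose with U0126, the accessory subunit gene Atp6ap1, with 1187, 3169 and 3042 with U0126 and 484, 1963 and 2440 in controls, at 0.76 ± 0.16 (adjusted p = 0.0454, called in 2 of 12 omissions and not after centring). The U0126 samples of Ostm1 and Atp6ap1 did not overlap with the controls. Atp6ap1 was also above the controls of its array type in every SB203580 sample (762.8, 2446.7 and 2797.6) and every SP600125 sample (680.6, 2832.9 and 2731.9), and was not called there. Of 15 autophagy genes, 1 rose with SP600125 (background 0.381 percent), the cargo receptor gene Sqstm1, with 1909, 2703 and 3124 with SP600125 and 1315, 2039 and 1941 in controls, at 0.54 ± 0.12 (adjusted p = 0.0472, called in 2 of 12 omissions and neither after centring nor after quantile normalization), again without overlap. Sqstm1 was also above the controls of its array type in every SB203580 sample (1669.1, 2640.6 and 2563.3) and every U0126 sample (1565.5, 2428.1 and 2172.1), and was not called there. None of 13 genes for sorting to lysosomes and 15 of mTORC1 and TFEB control was called against control by limma at the authors' scaling. After centring, Rragd of the mTORC1 and TFEB control list was called lower with U0126. At an unadjusted p under 0.05, the U0126 counts were 3 higher and 1 lower of the 17 other lysosomal genes, 7 and 0 of the pump, 1 and 0 of sorting, 6 and 0 of autophagy, and 3 and 1 of mTORC1 and TFEB control (background 13.4 percent of genes in either direction). After centring they were 2 and 1, 4 and 0, 0 and 1, 2 and 0, and 0 and 1 in the same order of lists. With SP600125 the counts were 0 higher and 1 lower, 2 and 0, 1 and 0, 4 and 0, and 0 and 2 (background 10.2 percent), and with SB203580 2 and 1, 1 and 0, 0 and 0, 4 and 1, and 2 and 3 (background 11.4 percent). With U0126 the medians were 0.15 for the other lysosomal genes (12 of 17 positive), 0.17 for the pump (12 of 15), 0.30 for sorting (12 of 13), 0.30 for autophagy (11 of 15) and 0.10 for mTORC1 and TFEB control (10 of 15), against 0.05 over all genes. With SB203580 they were 0.08, 0.06, 0.10, 0.10 and -0.05, and with SP600125 0.00, 0.07, 0.06, 0.12 and -0.10, in the same order of lists. Between inhibitors, Ostm1 was higher with SB203580 than with SP600125 (0.90 ± 0.19, adjusted p = 0.0353) and lower with SP600125 than with U0126 (-0.99 ± 0.19, adjusted p = 0.0101), and the pump subunit gene Atp6v1c1 was lower with SP600125 than with U0126 (-0.40 ± 0.10, adjusted p = 0.0411).

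Markers of the embryo's own cell types moved beside these values. Of 12 primitive endoderm markers, 1 fell with SB203580 (median of the list -0.64), 9 fell with SP600125 (median -1.35) and 2 fell with U0126 (median -0.62). Over all genes, 0.492, 0.523 and 0.412 percent were called lower with SB203580, SP600125 and U0126 in that order. Of 6 inner cell mass markers, Fgf4 (1.33 ± 0.20, adjusted p = 0.00550) and Sox2 (0.87 ± 0.14, adjusted p = 0.00853) rose with U0126 (median of the list 0.84), and none was called with SB203580 (0.30) or SP600125 (0.07). The share of all genes called higher with U0126 was 0.246 percent. Of these 6 markers, 5 were positive and 1 was negative with U0126. Nanog had 1161, 1883 and 1047 with U0126 and 1111, 1764 and 2376 in controls. Of 9 trophectoderm markers, 1 fell with SP600125 (median 0.04), and none was called with SB203580 (-0.20) or U0126 (-0.09). The summed primitive endoderm signal on the 430 2.0 arrays was 31021 and 33625 with SB203580, 28539 and 27273 with SP600125, 27101 and 34445 with U0126, and 39590 and 39714 in controls, lower in all 6 treated samples. The summed inner cell mass signal was 9293 and 9887 with SB203580, 9300 and 8876 with SP600125, 11592 and 11091 with U0126, and 8176 and 9080 in controls. The part of such shifts in cell types in the values of the lysosome genes was not tested.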

How the data were processed

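Deposited values were signal intensity per probe set, scaled by the authors so that the mean of each array, with 2 percent trimmed at each end, was 500 (found from the values). The labelling assay and array types are stated per the labels. Software, background correction and the summary of probes were not given in the sources used here. Arrays of type 430A and 430B from 1 sample were joined by label. The 20th percentile of signals on the 430 2.0 arrays, 12.6, was added to each intensity before log2 was taken. Probe sets with a mean of at least 42.9 on the 430 2.0 arrays (40th percentile) were tested, 27022 in all, naming 12614 genes.

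limma 3.58.1 in R 4.3.3 fitted the 4 groups with array type as a block and an intensity trend (7 residual degrees of freedom, 9.71 prior, median). P-values are two-sided moderated statistics, Benjamini-Hochberg adjusted over all probe sets tested. The number of arrays limits the precision. The fit was tested on simulated data. Sample correlations were 0.932 to 0.965 within and 0.700 to 0.739 across array types. Genes named were those called, the 4 hydrolases and 3 membrane proteins with the largest statistic per inhibitor, the regulators, Mcoln1, Ctsb, Lamp1, Lamp2, Neu1 and Ctsa. Psap, Gm2a, Npc2, Glb1 and genes of wide range were added after values were seen. Members and lists were chosen with earlier results of these data known. Alternatives were the constant, filter, scaling, trend, probe set choice, replicate block, array type and omission of each sample.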

Additional observations from a re-analysis of the deposited data

How the results depend on the processing

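No called gene turned its direction under any alternative run. The number of members called depended on the setting. For SP600125 against control it was 0 on the 430 2.0 arrays alone, without the intensity trend and where probe sets of the _x_at and _s_at kinds were left out (the brightest Lamp2 probe set is of that kind), and 0 to 1 over omissions of 1 sample. For U0126 against control it was 0 with no filter, after centring, on the 430 2.0 arrays alone and without the trend, 2 with the filter at the 60th percentile (Ctsa passed), and 0 to 1 over omissions. It stayed at 1 with Ctsa in place of Neu1 after quantile normalization, and Neu1 was also lost where _x_at and _s_at probe sets were left out (adjusted p = 0.0506). For SB203580 against SP600125 it was 0 on the 430 2.0 arrays alone and 0 to 1 over omissions, for SB203580 against U0126 it was 1 on the 430 2.0 arrays alone and 1 to 3 over omissions, and for SP600125 against U0126 it was 0 on the 430 2.0 arrays alone and 0 to 3 over omissions. Centring and quantile normalization each gave 2 for SB203580 against U0126 and 3 for SP600125 against U0126, of which 1 after centring, Lamp2, was higher with SP600125. Fits on the 430 2.0 arrays hold 2 samples a group. Apart from centring, the share of all genes called in these settings is not given here, so their counts have no background. Causes of the other changes were not tested.

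The median of the members with SB203580 was 0.11 on the 430 2.0 arrays alone and 0.12 to 0.16 over omissions. With SP600125 it was 0.011 after centring, 0.057 as the average over each gene's probe sets and 0.013 to 0.081 over omissions. With U0126 it was 0.052 after centring, 0.10 after quantile normalization, 0.11 on the 430 2.0 arrays alone and 0.10 to 0.20 over omissions, and 6 members were higher in all samples after centring, a setting added after the data were seen, as were the counts of the pathway lists after centring. Over all genes, centring gave 24 higher and 120 lower calls with U0126 against control (31 and 52 at the authors' scaling), 207 and 121 for SB203580 against U0126 (91 and 156), and 386 and 191 for SP600125 against U0126 (242 and 262).

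Replicate numbers do not pair the samples by the labels, and the differences between replicates 2 and 3 correlated at 0.018 to 0.088 between groups. With the replicate number as a block, 2 members were called for U0126 against control and 4 for SP600125 against U0126, and the other counts were as before. The share of all genes called in this setting is not given here, so these counts have no background.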
